A study of Saccharomyces cerevisiae with 15 samples.

Results

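Transcripts of the mitochondrial protein import machinery were followed in Saccharomyces cerevisiae through an N-downshift, the switch from glutamine to proline as the nitrogen source. The genes were taken by name: every TOM, TIM, PAM or SAM gene with a number, together with MIA40, ERV1, HOT13, SSC1, MGE1, MAS1, MAS2, OXA1 and IMP1. The ATP synthase gene TIM11 and the methionine enzymes SAM1, SAM2, SAM3 and SAM4 were left out. This gave 38 of the 5449 genes that had a single-gene probe set on the array, each with 1 probe set and none of them of a type shared within a gene family. For 36 of the 38 the product is a known part of import. TOM1 encodes a ubiquitin ligase and PAM1 a protein of unknown function. Both match the naming rule only, are counted among the 38, and are described apart.

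Most mitochondrial proteins are made in the cytosol as precursors. They cross the outer membrane through the TOM complex and are then sorted. Proteins with a cleavable presequence pass the TIM23 complex and are pulled into the matrix by the PAM motor, metabolite carriers are inserted by the TIM22 complex with the help of small TIM chaperones, cysteine-rich proteins of the intermembrane space are trapped by the MIA40 and ERV1 disulfide relay, and barrel-shaped outer membrane proteins are inserted by the SAM complex. Several of the genes, such as TOM40, TIM23 and SSC1, are essential in yeast. Proline, the nitrogen source after the N-downshift, is degraded inside mitochondria.

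Wild-type YSBN6 was grown in batch bioreactors in minimal medium with 20 g/L glucose, 500 mg/L glutamine and 250 mg/L proline, and time was counted from the moment at which glutamine could no longer be detected in the broth. RNA was measured on 15 Affymetrix Yeast Genome 2.0 arrays. Cultures 1, 2 and 3 each gave an array at −10 min (steady state), 7 min and 24 min. The −10 min is the time in the sample labels, and the study's supplement places these steady-state samples somewhat earlier before the shift in all 3 cultures. Culture 1 alone was also sampled at −5 min (steady state) and, after depletion, at 3, 10, 14, 56 and 120 min, with 1 array each. All groups share the strain, the genotype and the medium and differ in sampling time, so the N-downshift and anything else that changes with time in the culture cannot be told apart.

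The deposited values are linear intensities, normalised over the 15 arrays, and a change is given as a difference of mean log2 intensities. Each change was tested with limma against the spread between cultures, with p-values adjusted over 5498 probe sets and a threshold of 0.05. Summed intensity per array lay between 22691203 and 24045522. Across the 38 genes and all arrays the intensities ran from 1118 to 12322, and none was at or below 72.2, the level below which 95% of the 1746 probe sets of the array's other yeast species lay. The coefficient of variation between cultures had a median of 2.31% and reached 9.20%. Averages are means ± SD of 3 arrays. A change in total RNA per cell cannot be told apart in values normalised in this way.

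The import genes changed often but little. At 24 min against −10 min, 31 of the 38 passed the threshold, 13 higher and 18 lower, where 82.2% of all probe sets passed, 46.9% higher and 35.2% lower. The share that changed was thus close to that of the whole array. None of the 38 passed with a change of more than 2-fold, which 17.2% of all probe sets did. The median of the absolute log2 changes was 0.17 for the import genes, against 0.36 for all probe sets. The signed medians were −0.05 and 0.09. Small size was shared with related genes. The absolute median was 0.16 for mitochondrial ribosomal proteins, 0.17 for partners of inner membrane insertion and 0.15 for cytosolic chaperones. In the other lists described below it lay between 0.22 and 0.47. Values of the 3 arrays at 24 min did not overlap those at −10 min for 33 of the 38 genes, where 84.4% of all probe sets did not overlap. Of the 31 called genes, 30 moved the same way in all 3 cultures, the exception being TOM70. A call on the mean of these cultures largely implies this, and the share over all probe sets was not counted. Calls of 21 of the 31 held under all 10 alternative ways of processing. With quantile normalisation over the arrays the split was 9 higher and 21 lower, and with median centring it was 15 and 15.

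**Figure D1:**
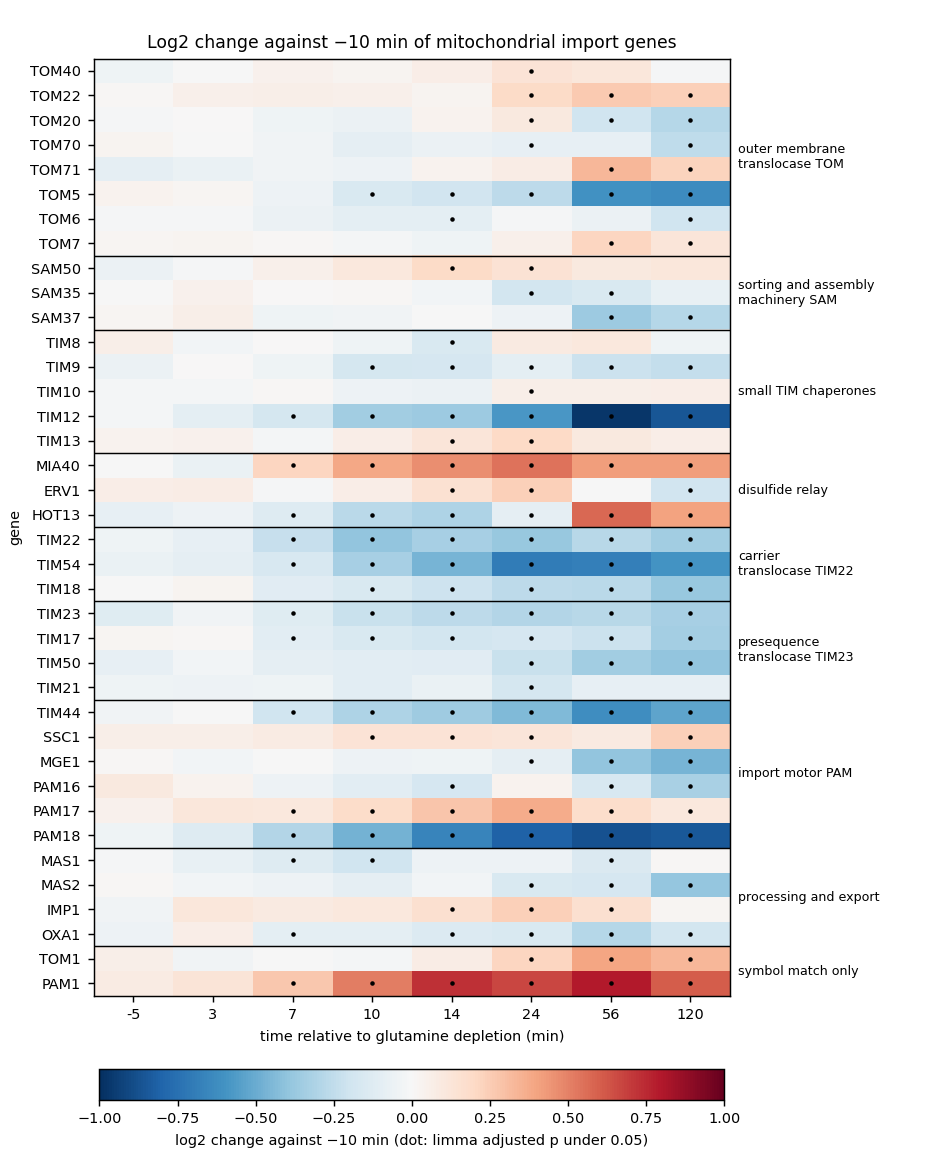
Log2 change of the 38 genes (rows, grouped by role) at each sampled time against −10 min (columns, min relative to glutamine depletion), with colour from blue (lower) to red (higher) and a dot where the limma adjusted p was under 0.05. Most cells are pale, no dot stands in the −5 and 3 min columns, and the dots of the TIM22 and TIM23 groups are all on blue.

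Calls among the import genes first appeared at 7 min. At −5 min none of the 38 genes passed, where 0.0182% of all probe sets did. By limma 1 gene had an unadjusted p under 0.05 at −5 min, where 10.6% of all probe sets did. At 3 min none passed either, where 3.69% of all probe sets did. By limma 3 genes had an unadjusted p under 0.05 at 3 min, where 21.0% of all probe sets did. At 7 min against −10 min 13 genes passed, 3 higher and 10 lower, where 39.4% of all probe sets passed, 18.5% higher and 20.9% lower. The genes that were higher at 7 min were MIA40, PAM17 and PAM1, and those that were lower were PAM18, TIM22, TIM44, TIM12, TIM54, TIM23, TIM17, OXA1, HOT13 and MAS1. All but MAS1 were past the threshold in the same direction at 24 min. Leaving out replicate 1 gave 4 calls at this time, where 511 of the 5498 probe sets were higher and 673 lower. Leaving out replicate 2 gave 12 (1405 and 1139 over all probe sets) and leaving out replicate 3 gave 6 (505 and 794). With all cultures 1015 of all probe sets were higher and 1150 lower. Of the 13 calls 4, those of MIA40, PAM1, PAM18 and TIM22, held under all 10 alternatives. Values at 7 min did not overlap those at −10 min for 19 of the 38 genes, where 51.9% of all probe sets did not overlap. At 10 min the single array gave 4 genes higher and 12 lower, where 51.2% of all probe sets passed, 25.6% higher and 25.5% lower. At 14 min 8 were higher and 15 lower, where 67.6% of all probe sets passed, 38.2% higher and 29.4% lower. The 10 min array brought 4 genes past the threshold for the first time, the 14 min array 7, the arrays at 24 min 11 and the 56 min array 3. First passes were not counted over all probe sets, whose share past the threshold rose from 39.4% at 7 min to 82.2% at 24 min. With median centring the split at 7 min was 6 higher and 7 lower (1635 and 958 over all probe sets), and at 10 min 7 and 9 (1927 and 1194). With quantile normalisation the split at 14 min was 6 higher and 20 lower (2201 and 1718 over all probe sets).

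The channels of the inner membrane had lower transcript levels. Among the genes taken by name, all 3 of the TIM22 complex and all 4 of the TIM23 complex fell at 24 min. Of all probe sets 82.2% passed at that time and 35.2% were lower. The median changes of these TIM22 and TIM23 genes were −0.38 and −0.20, and none of them passed with a higher level at any sampled time. All 7 also passed as lower at 24 min with quantile normalisation and with median centring. These groups hold only genes that the naming rule took. MGR2, counted below with the partners of inner membrane insertion, did not pass at 24 min (log2 change −0.07, SE 0.032, adjusted p = 0.0559). TIM54 (YJL054W), a subunit of the carrier translocase that reaches into the intermembrane space, had the second largest fall of all the import genes at 24 min. Its arrays read 2469, 2424 and 2457 at −10, 2339 at −5, 2301 at 3, 2191, 2129 and 2243 at 7, 1942 at 10, 1779 at 14, 1517, 1538 and 1474 at 24, 1528 at 56 and 1616 at 120 min. Its level at 24 min lay below that at −10 min in each culture (log2 change −0.70, SE 0.040, adjusted p = 5.88e-09), a ratio of 0.616, and it then stayed near that level. TIM22 (YDL217C), which forms the channel for carriers, fell at both replicated times. Intensities of TIM22 were 1940, 1923 and 1866 at −10, 1855 at −5, 1803 at 3, 1620, 1603 and 1649 at 7, 1453 at 10, 1514 at 14, 1564, 1371 and 1481 at 24, 1579 at 56 and 1502 at 120 min. The groups at 7 and at −10 min did not overlap (log2 change −0.23, SE 0.052, adjusted p = 0.00353), and neither did those at 24 and −10 min (log2 change −0.38, SE 0.052, adjusted p = 2.21e-05). TIM18, the membrane partner of these subunits, averaged 2370 ± 23 at 24 min and 2849 ± 120 at −10 min and changed by −0.26 (adjusted p = 8.81e-05).

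For the genes taken by name in the TIM23 complex, through which presequence proteins pass, the changes lay between −0.30 and −0.17. The channel subunit TIM23 averaged 4018 ± 57.5 at 24 min and 4931 ± 22.3 at −10 min, a change of −0.30 (adjusted p = 9.99e-07), with no overlap between the groups. The presequence receptor TIM50 changed by −0.23 and the channel partner TIM17 by −0.17. TIM21, which links the complex to TOM and to the respiratory chain, also changed by −0.17 (adjusted p = 0.00307), but this call was lost without replicate 1 and without replicate 3. The decline of TIM50, TIM23 and TIM17 went on or held: at 120 min they stood −0.39, −0.33 and −0.34 from −10 min. TIM21 at 56 and 120 min was −0.08 and −0.08, both short of the threshold.

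At 24 min the import motor held the largest fall as well as one of the largest rises among the import genes. PAM18 (YLR008C) encodes the J-protein that stimulates ATP hydrolysis by the motor's Hsp70, and its transcript at 24 min had fallen more than that of any other import gene. The arrays gave 3491, 3495 and 3486 at −10, 3392 at −5, 3189 at 3, 2789, 2793 and 2959 at 7, 2521 at 10, 2215 at 14, 1991, 1999 and 1984 at 24, 1910 at 56 and 1943 at 120 min. The arrays of a time differed by little, and the levels at −10, 7 and 24 min were clearly apart (log2 change −0.29, SE 0.036, adjusted p = 5.64e-05 at 7 min, log2 change −0.81, SE 0.036, adjusted p = 6.02e-10 at 24 min). The level at 24 min was 0.57 of that at −10 min. PAM17 (YKR065C), which helps to organise the motor at the TIM23 channel, moved the other way. For PAM17 the arrays read 4459, 4612 and 4400 at −10, 4635 at −5, 4847 at 3, 4849, 4713 and 4956 at 7, 5111 at 10, 5454 at 14, 5771, 5812 and 5863 at 24, 5084 at 56 and 4840 at 120 min. All 3 arrays at 24 min lay above all 3 at −10 min (log2 change 0.37, SE 0.031, adjusted p = 2.42e-07). The rise receded later, since PAM17 at 56 min was lower than at 24 min (log2 change −0.19, SE 0.045, adjusted p = 0.00405), though still above −10 min (log2 change 0.18, SE 0.045, adjusted p = 0.00274), a call that was lost with quantile normalisation.

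TIM44 (YIL022W), the tether that holds the Hsp70 at the channel exit, fell with PAM18. TIM44 read 3441, 3542 and 3164 at −10, 3303 at −5, 3365 at 3, 2955, 2881 and 2980 at 7, 2726 at 10, 2634 at 14, 2588, 2449 and 2446 at 24, 2197 at 56 and 2342 at 120 min. The groups at 24 and −10 min were apart (log2 change −0.44, SE 0.046, adjusted p = 2.01e-06), and so were those at 7 and −10 min (log2 change −0.20, SE 0.046, adjusted p = 0.00449). PAM16, which binds PAM18 and restrains it, did not pass at 24 min (log2 change 0.03, SE 0.037, adjusted p = 0.435). Its transcript was lower later, at 56 min (log2 change −0.16, SE 0.052, adjusted p = 0.0156) and at 120 min (log2 change −0.32, SE 0.052, adjusted p = 0.000116), and the call at 56 min was lost without replicate 3 and with a replicate block. The Hsp70 itself, SSC1, averaged 11320 ± 414 at 24 min and 10423 ± 123 at −10 min and rose slightly (log2 change 0.12, SE 0.031, adjusted p = 0.00331), a call that was lost with quantile normalisation. MGE1, its nucleotide exchange factor, averaged 6477 ± 164 at 24 min and 6888 ± 265 at −10 min (log2 change −0.09, SE 0.034, adjusted p = 0.0283), and this call too was lost under some alternatives, among them the fits without replicate 1 and without replicate 3.

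**Figure D2:**
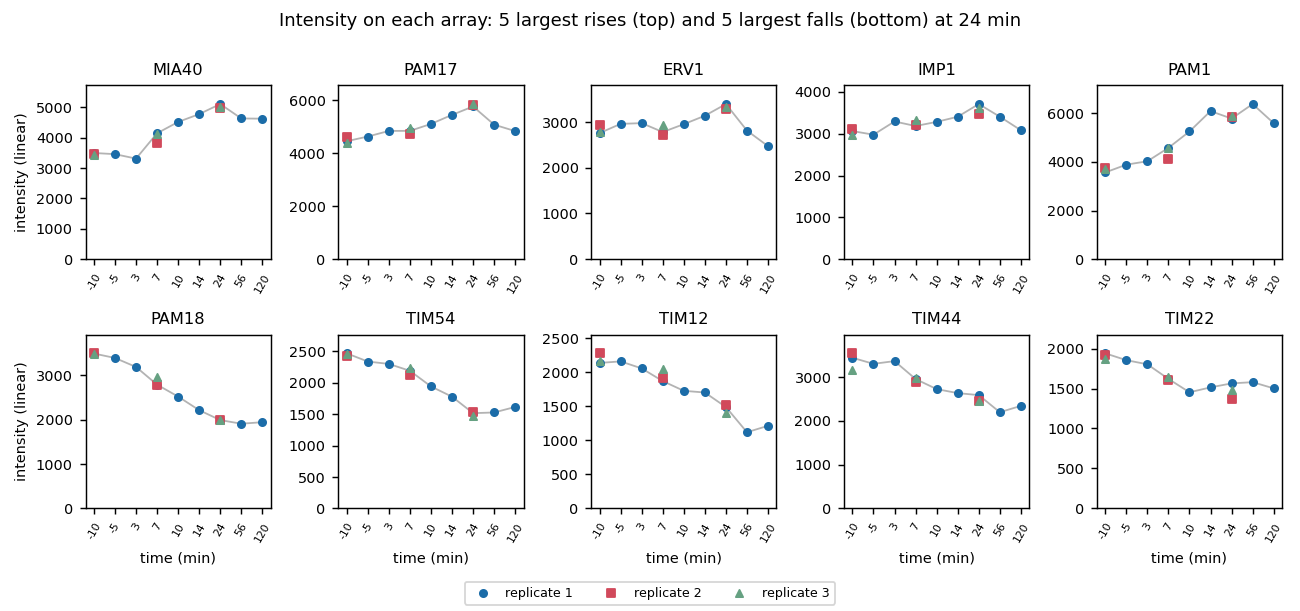
Linear intensity on each array (y axis, from 0) against time (x axis, min relative to glutamine depletion, sampled times evenly spaced) for the 5 largest rises and the 5 largest falls at 24 min. Symbols are cultures (replicates 1, 2 and 3) and the grey line joins culture 1. PAM18 and TIM54 drop between 3 and 24 min to a level that they keep, whereas MIA40 and PAM17 are highest at 24 min.

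In the intermembrane space both enzymes of the disulfide relay rose by 24 min. MIA40 (YKL195W), the receptor that oxidises incoming cysteine-rich proteins, had the largest rise of the known import genes at 24 min. Its arrays read 3500, 3456 and 3439 at −10, 3461 at −5, 3314 at 3, 4150, 3830 and 4112 at 7, 4523 at 10, 4782 at 14, 5113, 4972 and 5025 at 24, 4638 at 56 and 4631 at 120 min. No array at 7 or 24 min overlapped those at −10 min (log2 change 0.22, SE 0.036, adjusted p = 0.000467 at 7 min, log2 change 0.54, SE 0.036, adjusted p = 2.6e-08 at 24 min), and the level was 1.45-fold that at −10 min. It remained higher at 56 min (log2 change 0.42, SE 0.051, adjusted p = 8.49e-06) and 120 min (log2 change 0.42, SE 0.051, adjusted p = 9.42e-06). ERV1 (YGR029W), the sulfhydryl oxidase that recharges MIA40, rose later. Intensities of ERV1 were 2761, 2948 and 2780 at −10, 2962 at −5, 2978 at 3, 2783, 2718 and 2935 at 7, 2955 at 10, 3140 at 14, 3396, 3293 and 3325 at 24, 2815 at 56 and 2474 at 120 min. At 7 min the groups overlapped (log2 change −0.01, SE 0.041, adjusted p = 0.88), at 24 min they did not (log2 change 0.24, SE 0.041, adjusted p = 0.000164), and by 120 min the level was below that at −10 min (log2 change −0.19, SE 0.058, adjusted p = 0.00926). HOT13, a helper that keeps MIA40 free of zinc, is described with the late changes.

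Of the 5 small TIM chaperones, which shield hydrophobic precursors on their way across the intermembrane space, 2 rose, 2 fell and 1 did not pass at 24 min. TIM12 (YBR091C), the chaperone that docks at the TIM22 complex, fell most. The arrays gave 2136, 2276 and 2170 at −10, 2158 at −5, 2055 at 3, 1869, 1917 and 2042 at 7, 1726 at 10, 1701 at 14, 1488, 1519 and 1399 at 24, 1118 at 56 and 1212 at 120 min. Its levels at −10, 7 and 24 min did not overlap (log2 change −0.58, SE 0.051, adjusted p = 3.67e-07 at 24 min), and at 56 min it reached 0.51 of the level at −10 min (log2 change −0.97, SE 0.072, adjusted p = 9.44e-08), the largest change of any of the 38 genes at any sampled time. TIM9 and TIM10 form the main chaperone ring. TIM9 was slightly lower (log2 change −0.09, SE 0.037, adjusted p = 0.0335) and TIM10 slightly higher (log2 change 0.06, SE 0.023, adjusted p = 0.0332), and neither call held under all alternatives, TIM10 being at −0.0043 with quantile normalisation. TIM13 averaged 7329 ± 68.6 at 24 min and 6398 ± 160 at −10 min and rose (log2 change 0.20, SE 0.033, adjusted p = 0.000129), while its partner TIM8 did not pass (log2 change 0.09, SE 0.042, adjusted p = 0.0725).

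At the outer membrane the changes were small and mixed. Of the 8 TOM genes none passed at 7 min, where 39.4% of all probe sets did. None had an unadjusted p under 0.05 by limma at 7 min, where 47.6% of all probe sets did. At 24 min 3 rose, 2 fell and 3 did not pass, where 46.9% of all probe sets were higher and 35.2% lower. TOM22, the central receptor that organises the complex, averaged 7384 ± 106 at 24 min and 6467 ± 148 at −10 min and rose (log2 change 0.19, SE 0.028, adjusted p = 3.43e-05), and TOM40, which forms the pore, averaged 8552 ± 242 at 24 min and 7777 ± 351 at −10 min (log2 change 0.14, SE 0.037, adjusted p = 0.00411). TOM20, a presequence receptor, averaged 5453 ± 40.1 at 24 min and 5092 ± 190 at −10 min (log2 change 0.10, SE 0.033, adjusted p = 0.0142). The calls of TOM40 and TOM20 were lost with quantile normalisation, which gave changes of 0.014 and 0.011. The small subunit TOM5 averaged 4857 ± 113 at 24 min and 5828 ± 92.1 at −10 min and fell (log2 change −0.26, SE 0.038, adjusted p = 3.5e-05). The small subunits TOM6 (−0.01) and TOM7 (0.05) did not pass, and TOM7 was at −0.07 with quantile normalisation.

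TOM70 and TOM71 are paralogs that encode receptors for hydrophobic precursors such as carriers. For TOM70 the arrays read 5864, 6007 and 6133 at −10, 6103 at −5, 5991 at 3, 5683, 5912 and 5956 at 7, 5625 at 10, 5773 at 14, 5893, 5496 and 5608 at 24, 5657 at 56 and 5023 at 120 min. TOM70 at 24 min overlapped −10 min although it passed (log2 change −0.08, SE 0.035, adjusted p = 0.0424), its change was positive in culture 1 and negative in cultures 2 and 3, and its call was lost with a replicate block (adjusted p = 0.0647). At 120 min it was lower (log2 change −0.26, SE 0.049, adjusted p = 0.000442). TOM71 read 3726, 3776 and 3677 at −10, 3508 at −5, 3564 at 3, 3626, 3547 and 3721 at 7, 3593 at 10, 3808 at 14, 3944, 3836 and 3972 at 24, 4686 at 56 and 4344 at 120 min. TOM71 at 24 min lay above −10 min on all arrays but did not pass (log2 change 0.07, SE 0.033, adjusted p = 0.0586), and it was higher at 56 min (log2 change 0.33, SE 0.046, adjusted p = 3.07e-05) and 120 min (log2 change 0.22, SE 0.046, adjusted p = 0.000838). The difference between the paralogs was not tested.

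In the SAM complex, SAM50, the insertase of barrel proteins, averaged 2845 ± 69.8 at 24 min and 2570 ± 107 at −10 min and rose (log2 change 0.15, SE 0.042, adjusted p = 0.00625), a call that was lost without replicate 1. SAM35, a subunit on the cytosolic side that recognises the precursors, averaged 4279 ± 80.9 at 24 min and 4847 ± 62.2 at −10 min and fell (log2 change −0.18, SE 0.030, adjusted p = 0.000142). SAM37, its partner, did not pass (log2 change −0.05, SE 0.064, adjusted p = 0.454). No SAM gene passed at 7 min, where 39.4% of all probe sets did, and the changes lay between −0.05 and 0.05. No SAM gene had an unadjusted p under 0.05 by limma at 7 min, where 47.6% of all probe sets did.

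The genes for processing and export also split. IMP1 (YMR150C), a subunit of the inner membrane peptidase that matures proteins of the intermembrane space, rose. Its arrays read 3063, 3108 and 2972 at −10, 2976 at −5, 3293 at 3, 3183, 3216 and 3337 at 7, 3283 at 10, 3405 at 14, 3709, 3465 and 3621 at 24, 3407 at 56 and 3083 at 120 min. The groups at 24 and −10 min did not overlap (log2 change 0.24, SE 0.038, adjusted p = 8.35e-05), and by 120 min the level was back near that of −10 min (log2 change 0.02, SE 0.054, adjusted p = 0.788). MAS1 and MAS2 are the subunits of the matrix peptidase that removes presequences. MAS1 was lower at 7 min (log2 change −0.13, SE 0.034, adjusted p = 0.00998) but did not pass at 24 min (log2 change −0.05, SE 0.034, adjusted p = 0.177). MAS2 did not pass at 7 min (log2 change −0.05, SE 0.036, adjusted p = 0.314) and averaged 2347 ± 59.8 at 24 min and 2608 ± 30.3 at −10 min (log2 change −0.15, SE 0.036, adjusted p = 0.00183). OXA1, the insertase for proteins that enter the inner membrane from the matrix, averaged 3878 ± 105 at 24 min and 4310 ± 119 at −10 min (log2 change −0.15, SE 0.035, adjusted p = 0.00144).

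The symbol rule also took PAM1 and TOM1. Intensities of PAM1 were 3567, 3760 and 3701 at −10, 3887 at −5, 4027 at 3, 4579, 4128 and 4588 at 7, 5252 at 10, 6090 at 14, 5784, 5857 and 5879 at 24, 6381 at 56 and 5594 at 120 min. PAM1 (YDR251W) showed the largest rise of the 38 genes at 24 min, with no overlap between 24 and −10 min (log2 change 0.67, SE 0.042, adjusted p = 1.52e-08). TOM1 averaged 8155 ± 514 at 24 min and 7023 ± 113 at −10 min and rose as well (log2 change 0.21, SE 0.042, adjusted p = 0.000428). Without these genes the counts at 24 min were 11 higher and 18 lower of 36, with a median change of −0.07.

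After 24 min more of the import genes were lower than higher, as had been so at 7, 10, 14 and 24 min. At 56 min against −10 min 9 of the 38 were higher and 19 lower, where 79.1% of all probe sets passed, 49.4% higher and 29.7% lower. At 120 min 9 were higher and 20 lower, where 77.3% passed, 44.4% higher and 32.9% lower. The median change of the import genes was −0.12 at 56 min and −0.19 at 120 min, and that of all probe sets 0.16 and 0.09. With quantile normalisation the import genes were at −0.22 and −0.23 and all probe sets at 0.10 and 0.05, and with median centring the import genes were at −0.18 and −0.21 and all probe sets at 0.09 and 0.07. Again none of the 38 passed 2-fold, which 21.3% of all probe sets did at 56 min and 19.6% at 120 min. In culture 1 the largest change from −10 min came at 56 min for 12 of the 38 genes (31.6%) and at 120 min for 13 (34.2%), and over all probe sets at 56 min for 31.4% and at 120 min for 27.2%. These times have 1 array each, and their tests assume the spread of the replicated times.

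Lower at all of 24, 56 and 120 min against −10 min were 14 of the 38 genes, where 25.5% of all probe sets were lower at all of these times: TIM22, TIM54 and TIM18 of the carrier translocase, TIM23, TIM17 and TIM50 of the presequence translocase, PAM18, TIM44 and MGE1 of the motor, the chaperones TIM9 and TIM12, and MAS2, OXA1 and TOM5. Higher at all of these times were 5, where 37.3% of all probe sets were, namely MIA40, PAM17, TOM22, TOM1 and PAM1. TOM71, TOM7 and HOT13 were higher at 56 and 120 min but not at 24 min, and PAM16, SAM37 and TOM20 were lower at 56 and 120 min but not at 24 min. The calls of TOM7 at 120 min and of PAM17 at 56 and 120 min were lost with quantile normalisation. That of PAM17 at 120 min was also lost with a replicate block, with median centring, with eBayes without a trend and without replicate 3.

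Set directly against 24 min, 4 of the 38 were higher and 10 lower at 56 min (44.8% of all probe sets passed, 32.6% higher and 12.2% lower), and 3 were higher and 16 lower at 120 min (51.2%, 30.2% higher and 21.0% lower). The split at 56 min was 4 higher and 18 lower with quantile normalisation, under which 1419 of all probe sets were higher and 1293 lower, and 2 higher and 19 lower with median centring, under which 1347 were higher and 1179 lower. As deposited, 1791 of all probe sets were higher and 670 lower at 56 min, and 1663 higher and 1154 lower at 120 min. At 120 min the split was 4 higher and 18 lower with quantile normalisation (1500 and 1691 over all probe sets) and 2 higher and 20 lower with median centring (1508 and 1450). The genes given next were chosen after their values had been seen. HOT13 (YKL084W) turned round. The arrays gave 4979, 4977 and 5024 at −10, 4714 at −5, 4829 at 3, 4451, 4525 and 4758 at 7, 4145 at 10, 4033 at 14, 4815, 4478 and 4796 at 24, 7437 at 56 and 6592 at 120 min. Its arrays at 24 min lay just below those at −10 min (log2 change −0.09, SE 0.037, adjusted p = 0.0419), a call that was lost when any of the 3 cultures was left out, whereas at 56 min it was well above both (log2 change 0.57, SE 0.053, adjusted p = 6.64e-07 against −10 min, log2 change 0.66, SE 0.053, adjusted p = 1.22e-06 against 24 min).

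TOM20 took the opposite course. For TOM20 the arrays read 4990, 5312 and 4975 at −10, 5057 at −5, 5104 at 3, 4963, 4877 and 5020 at 7, 4884 at 10, 5203 at 14, 5417, 5496 and 5444 at 24, 4431 at 56 and 4169 at 120 min. It was lower at 120 min than at 24 min (log2 change −0.39, SE 0.046, adjusted p = 2.62e-05) and than at −10 min (log2 change −0.29, SE 0.046, adjusted p = 0.000108). TOM5 fell further. TOM5 read 5730, 5843 and 5912 at −10, 5970 at −5, 5919 at 3, 5323, 5816 and 5776 at 7, 5232 at 10, 5105 at 14, 4837, 4979 and 4756 at 24, 3824 at 56 and 3778 at 120 min. At 56 min its level was 0.656 of that at −10 min (log2 change −0.61, SE 0.054, adjusted p = 4.75e-07). MGE1 was lower at 56 min than at 24 min (log2 change −0.30, SE 0.048, adjusted p = 0.000307). SAM37, which did not pass at 24 min, was lower at 56 min than at −10 min (log2 change −0.36, SE 0.091, adjusted p = 0.0029).

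**Figure D3:**
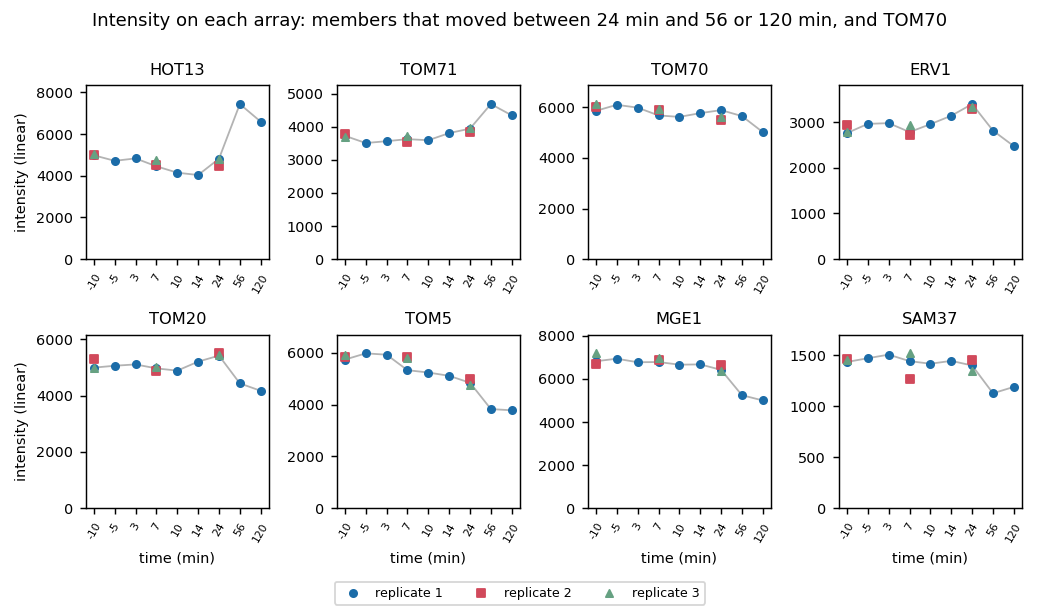
Linear intensity on each array (y axis, from 0) against time (x axis, min relative to glutamine depletion, sampled times evenly spaced) for 7 genes that changed between 24 min and 56 or 120 min, and for TOM70. HOT13 and TOM71 are highest at 56 min, and TOM20, TOM5, MGE1 and ERV1 are lower at 120 min than at 24 min.

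Between 7 and 24 min, the replicated times after depletion, 11 of the 38 genes were higher and 13 lower at 24 min (76.8% of all probe sets passed, 46.9% higher and 29.9% lower). All 24 moved the same way in all 3 cultures, which the calls largely imply, and the share over all probe sets was not counted. TIM54 (log2 change −0.54, SE 0.040, adjusted p = 1.2e-07) and PAM18 (log2 change −0.52, SE 0.036, adjusted p = 7.31e-08) fell most, and PAM1 (log2 change 0.40, SE 0.042, adjusted p = 2.73e-06) and MIA40 (log2 change 0.32, SE 0.036, adjusted p = 4.62e-06) rose most. With quantile normalisation the split was 7 higher and 18 lower, where 2635 of all probe sets were higher and 1766 lower. As deposited, 2581 of all probe sets were higher and 1644 lower.

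Other genes that work with the import machinery were counted in the same fit, in which the median over all probe sets was 0.09 at 24 min and 82.2% passed. Of 11 genes for presequence processing and matrix folding 7 rose at 24 min and none fell, with a median of 0.22. These included the peptide-degrading protease CYM1 (0.79, adjusted p = 7.22e-09), the peptidase subunit SOM1 (0.74, adjusted p = 8.43e-09), the disaggregase HSP78 (0.46, adjusted p = 1.3e-05) and the Hsp70 escort protein ZIM17 (0.37, adjusted p = 1.94e-05). SOM1 works with IMP1. Of 9 genes listed under outer membrane biogenesis 7 rose and 2 fell, with a median of 0.16. The list also holds proteins of the outer membrane itself. Of these, the abundant OM45 (2.15, adjusted p = 2.46e-10) and OM14 (1.27, adjusted p = 1.09e-10) rose by more than 2-fold, and POR1 rose by 0.37 (adjusted p = 2.21e-08). The genes that fell were MIM2 (−0.32, adjusted p = 3.26e-05) and MIM1 (−0.17, adjusted p = 0.000191), which together insert helical outer membrane proteins.

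Of 7 partners of inner membrane insertion and its quality control 2 rose and 2 fell, with a median of 0.05. All 7 passed with quantile normalisation, under which 2736 of the 5498 probe sets were higher and 1920 lower. The directions of the 7 under it are not given. MDM38 (−0.87, adjusted p = 2.42e-10), which binds mitochondrial ribosomes, and its relative YLH47 (−0.68, adjusted p = 2.84e-08) fell, whereas MSS2 (0.64, adjusted p = 3.34e-07), needed for export of a cytochrome oxidase subunit, rose. Of 9 twin CX9C proteins, most of them clients of the disulfide relay, 8 rose and none fell, with a median of 0.47. MIX14 (0.86, adjusted p = 2.13e-08), COX23 (0.65, adjusted p = 6.54e-06) and CMC2 (0.53, adjusted p = 2.22e-07) led them, and COX19 did not pass (−0.13, adjusted p = 0.0748). Of 9 cytosolic chaperones that deliver precursors 6 rose and 1 fell, with a median of 0.15. The one that fell was YDJ1, an Hsp40 that binds precursors (−1.02, adjusted p = 1.06e-08), while the Hsp70 SSA1 rose (0.55, adjusted p = 1.07e-09).

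The cargo of the machinery was counted in the same way. Of 37 oxidative phosphorylation genes 35 rose at 24 min and 1, CYC1, fell, with a median of 0.38, and of 68 mitochondrial ribosomal protein genes 36 rose and 11 fell, with a median of 0.11. At the later times, with 1 array each, the balance of the ribosomal protein genes was the other way: 13 were higher and 19 lower at 56 min (median 0.0064), and 11 higher and 29 lower at 120 min (median −0.06). At 120 min against 24 min 2 of them were higher and 44 lower, where 30.2% of all probe sets were higher and 21.0% lower. Against −10 min, 46.9% of all probe sets were higher and 35.2% lower at 24 min. The shares were 49.4% and 29.7% at 56 min, and 44.4% and 32.9% at 120 min. No other normalisation is given for the late counts of either list. The oxidative phosphorylation genes were still higher, 35 of 37 at 56 min and 36 of 37 at 120 min, with 1 lower at each time. The import genes had a median of −0.05 at 24 min, with 13 rises and 18 falls of 38. The largest changes among the oxidative phosphorylation genes were those of CYC7 (3.06, adjusted p = 4.73e-11), COX5B (1.23, adjusted p = 2.29e-11) and CYC1 (−1.21, adjusted p = 8.2e-11), which encode alternative forms of cytochrome c and of a cytochrome oxidase subunit, and SDH1 (1.03, adjusted p = 2.74e-10), which encodes the flavoprotein of succinate dehydrogenase. The differences between the lists were not tested. The count for the ribosomal proteins was 30 of 68 without replicate 1, against 47 with it.

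**Figure D4:**
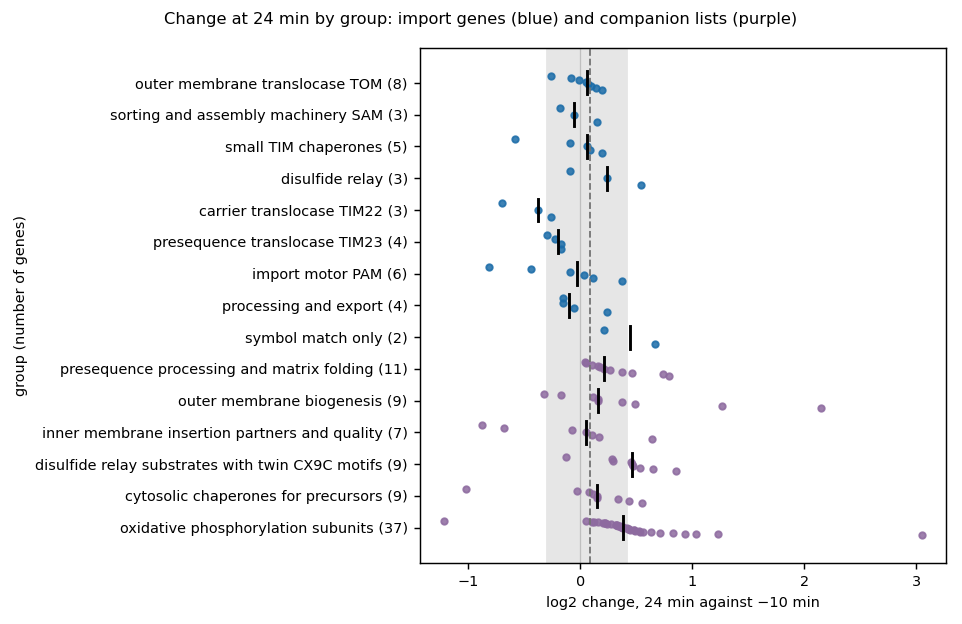
Log2 change at 24 min against −10 min (x axis) of each gene (points), by role group of the import genes (blue) and by companion list (purple), with the number of genes in brackets. Black bars are group medians, the grey band spans the quartiles of all 5498 probe sets (−0.29 to 0.42) and the dashed line is their median (0.09). All points of the TIM22 and TIM23 groups lie below 0, and all but 1 of the oxidative phosphorylation genes lie above it.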

How the data were processed

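The authors hybridised RNA to Affymetrix Yeast Genome 2.0 arrays and, per their Materials and Methods, applied RMA background correction to perfect-match probes, QSPLINE normalisation over the arrays of the shift and Li-Wong summarisation. R 2.10.0 and the affy package are named in the submitters' processing notes, with RMA. Linear intensities were deposited for 10928 probe sets on 15 arrays. Names came from GEO's platform annotation, which gives 5498 probe sets 1 yeast gene each. No genome build was used, and no sequence is shown.

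Log2 intensities, with no offset, went into limma 3.58.1 under R 4.3.3 (lmFit with 1 mean per sampled time over all arrays, eBayes with a trend, 2-sided). The Benjamini-Hochberg adjustment ran over all 5498 probe sets within a comparison. The fit was tested on simulated data. The import genes, the companion lists and the rule for genes shown in full (the 5 largest rises and falls at 24 min, and TOM70 with TOM71) were chosen with earlier results of these data known. Replicate numbers 1, 2 and 3 mark separate bioreactor cultures and pair the samples by design. Deviations of samples of 1 culture correlated by −0.271 to 0.189. The methods use no block, so a replicate block was an alternative, as were quantile normalisation, median centring, an offset of 50, a filter on dim probe sets, eBayes without a trend, the mean of a gene's probe sets and leaving out each culture. The alternatives for single genes at 56 and 120 min were chosen after seeing the data. The number of arrays limits the precision.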

Additional observations from a re-analysis of the deposited data

Results flagged for a closer look

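Some import genes were past the threshold in opposite directions at 24 min and at a later time, both set against the same arrays of the earliest sampled time. The genes below were selected for this. The difference between the times was also past the threshold by limma, but the selection largely implies this, so it is not separate support. The share of all probe sets that turned in this way was not counted. The late times have 1 array each. HOT13 was 0.66 higher on the log2 scale at 56 min than at 24 min (SE 0.053, adjusted p = 1.22e-06), and 0.49 higher at 120 min than at 24 min (adjusted p = 1.06e-05). TOM20 differed by −0.30 between 56 and 24 min (SE 0.046, adjusted p = 0.000287) and by −0.39 between 120 and 24 min (adjusted p = 2.62e-05). ERV1 differed by −0.43 between 120 and 24 min (SE 0.058, adjusted p = 6.83e-05). These 5 differences kept their direction and stayed past the threshold under the 9 alternatives that could be run on them. The alternatives used the arrays on which the genes had been selected, so they too are not separate support. The opposite direction at 24 min is less firm for HOT13 and TOM20, whose small changes of −0.09 and 0.10 lost their calls under some alternatives, TOM20 with quantile normalisation and HOT13 when any culture was left out. Groups of 3 arrays were not searched for outlying samples.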

How the results depend on the processing

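Of 510 values of single genes at 7 and 24 min under the alternatives, 445 kept their direction and side of the threshold, 53 kept the direction but lost the call, 6 gained one and 6 reversed. The reversals were TOM6 at 24 min (0.0033 with median centring, and −0.040 to 0.0067 over the fits that left out a culture), TOM7 (−0.069), SAM37 (0.070) and TIM10 (−0.0043) with quantile normalisation. With a replicate block the calls were 12 of 38 at 7 min and 30 at 24 min, with 3 and 13 higher, 9 and 17 lower, and the calls of OXA1 at 7 min and TOM70 at 24 min were lost. Leaving out 1 culture gave 0 to 2 calls at 3 min, 4 to 12 at 7 min (2 to 5 higher, 2 to 7 lower), 15 to 24 at 14 min and 8 to 12 lower for 24 against 7 min. Over all probe sets the fits that left out a culture gave 505 to 1405 higher and 673 to 1139 lower at 7 min. For 24 against 7 min they gave 1410 to 1588 lower. Fits without replicate 1 have no arrays at the unreplicated times. Quantile normalisation gave 22 calls for 56 against 24 min in place of 14, 7 higher in place of 11 for 24 against 7 min, and a median of −0.10 in place of −0.05 at 24 min. Over all probe sets quantile normalisation gave 2635 higher in place of 2581 for 24 against 7 min, and a median of 0.10 in place of 0.09 at 24 min. Median centring gave 6 higher in place of 3 at 7 min, where 1635 of all probe sets were higher in place of 1015. At 7 min, presequence processing had 3 calls (5 with quantile normalisation, 1 to 5 without a culture), outer membrane biogenesis 2 (4 with median centring, 2 to 4), inner membrane partners 3 (1 to 4), twin CX9C proteins 4 (7 with median centring, 2 to 6), cytosolic chaperones 3 (0 to 5), oxidative phosphorylation 20 (10 to 25) and mitochondrial ribosomal proteins 9 (14 with quantile normalisation, 19 with median centring, 0 to 10). At 24 min, inner membrane partners had 7 calls with quantile normalisation in place of 4, and ribosomal proteins 30 to 48 without a culture in place of 47. The cause was not tested. Leaving out a culture also lowers the number of arrays, which was not separated from the culture removed. Standard errors of 0.023 to 0.064 at 24 min set the smallest change that could be called.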
